A study of Mus musculus with 4 samples.

Results

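Small nucleolar RNA (snoRNA) and small Cajal body RNA (scaRNA) genes were compared between mouse embryonic stem cells targeted at Ssrp1 and wild-type cells. The genes were chosen by name and by detection: symbols beginning with Snora, Snord or Scarna and a digit, with at least 10 deposited counts summed over the 4 libraries. Of 147 symbols with such names, 60 met this threshold, out of 55353 symbols in the whole table. They are 18 box H/ACA genes (Snora symbols), 36 box C/D genes (Snord symbols) and 6 scaRNA genes (Scarna symbols). The threshold used the sum over both groups and no difference between them. The members with the lowest sums were Snord13 with 11 counts and Snord59a, Snord65 and Snord90 with 12 each. Just outside were Snord23 and Snord42a with 9 counts each and Snord61 with 8.

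All libraries came from E14 cells, a mouse embryonic stem cell line (strain given as 12910la), grown on gelatin with serum and leukaemia inhibitory factor. There were 2 libraries of cells with the genotype Ssrp1 KO, made with Cas9 and a guide RNA, and 2 libraries of wild-type cells, called controls here. The treatment text also mentions a Usp7 shRNA and a puromycin vector given to wild-type cells, without saying if the control libraries had the vector or how many clones the targeted cells come from. Total RNA was depleted of ribosomal RNA, primed at random and sequenced from both ends, so a poly(A) tail was not required. How well such libraries retain RNAs as short as the members, 65 to 414 bases, was not tested. All 60 members add up to 0.0154% and 0.0138% of each Ssrp1 KO library, and to 0.0112% and 0.0114% of each control library. Levels below describe counted reads and were not checked against amounts of mature RNA.

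snoRNAs guide the chemical modification of other RNAs in the nucleolus. Box C/D snoRNAs are short, carry a C box and a D box, and direct 2'-O-methylation by fibrillarin, whereas box H/ACA snoRNAs fold into hairpins joined by an H box, end in an ACA box and direct pseudouridylation by dyskerin. scaRNAs carry either or both kinds of box and act on spliceosomal RNAs in Cajal bodies. In mammals most snoRNAs are cut from introns of a host gene after splicing, while a few, such as Snord118 (U8) and Snord13 (U13), are transcribed from promoters of their own. Some do not modify but help to cut the ribosomal RNA precursor, among them Snora73a and Snora73b (U17) for the small subunit and Snord118 for the large one.

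The sequences of the members called different between the groups are given to show the boxes found, or not found, in each. They are from the GENCODE M21 transcripts (mm10), 5′ to 3′ on the RNA strand, with T for U. In the box H/ACA RNAs capitals mark each ANANNA match wholly inside the central part, between the outer parts of equal length, and the last ACA within 10 bases of the 3′ end, and in the box C/D RNAs they mark TGATGA starting in the first 20 bases and the last CTGA starting in the last 15 bases. Only the RNA strand was searched, and Snord93 and Snord118 hold no TGATGA in that window. Snora17 and Snora43 also hold a CTGA near the 3′ end, which overlaps the capitalised ACA by its last base.
Snora17: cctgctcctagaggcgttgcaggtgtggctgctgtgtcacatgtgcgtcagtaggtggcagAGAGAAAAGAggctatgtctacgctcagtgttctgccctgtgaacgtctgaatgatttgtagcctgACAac
Snora43: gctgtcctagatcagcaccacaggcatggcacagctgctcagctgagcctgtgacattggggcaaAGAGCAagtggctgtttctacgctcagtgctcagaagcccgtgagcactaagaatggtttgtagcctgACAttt
Snora47: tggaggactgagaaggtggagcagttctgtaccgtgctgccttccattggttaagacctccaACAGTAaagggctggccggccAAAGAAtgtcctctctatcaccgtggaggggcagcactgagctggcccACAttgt
Snord93: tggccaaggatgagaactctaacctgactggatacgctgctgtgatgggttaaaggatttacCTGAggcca
Snord118: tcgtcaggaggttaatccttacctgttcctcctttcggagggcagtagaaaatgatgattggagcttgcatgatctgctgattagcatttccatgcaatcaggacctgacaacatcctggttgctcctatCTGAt
An ACA in the last 10 bases was present in all 18 box H/ACA members, against 5 of 36 box C/D members, and an ANANNA match in the central part in 17 of 18, against 11 of 36. CTGA near the 3′ end was present in 31 of 36 box C/D members, against 2 of 18 box H/ACA members, and TGATGA near the 5′ end in 21 of 36, against 0 of 18. Over all symbols of the name pattern the ACA was found in 95.0% of 40 Snora and 8.2% of 98 Snord sequences, and the CTGA in 5.0% and 92.9%. The 5 sequences lie at chr2:26639190-26639321 (Snora17, minus strand), chr2:26637847-26637985 (Snora43, minus), chr13:95330600-95330737 (Snora47, plus), chr5:23852210-23852280 (Snord93, plus) and chr11:69073427-69073561 (Snord118, plus).

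Snora73b, also called different, is shown with its near-identical copy Snora73a, because reads may be split between them. Capitals mark the bases at which they differ.
Snora73b: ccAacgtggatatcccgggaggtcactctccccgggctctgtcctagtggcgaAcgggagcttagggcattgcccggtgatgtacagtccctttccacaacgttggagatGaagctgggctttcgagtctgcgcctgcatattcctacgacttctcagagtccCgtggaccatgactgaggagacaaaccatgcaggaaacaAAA
Snora73a: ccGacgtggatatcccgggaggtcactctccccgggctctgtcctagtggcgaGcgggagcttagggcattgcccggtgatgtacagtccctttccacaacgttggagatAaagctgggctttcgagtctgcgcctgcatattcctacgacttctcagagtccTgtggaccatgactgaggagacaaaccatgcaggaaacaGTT
Both are 205 bases long and on the minus strand of chromosome 4, Snora73b at chr4:132352322-132352526 and Snora73a at chr4:132352775-132352979. They differ at 7 positions counted from the 5′ end (A3G, A54G, G111A, C164T, A203G, A204T and A205T, with the base of Snora73b first), an identity of 96.6%. Snord88c, a box C/D member, shares 94.4% of 90 aligned bases with Snord88a, which is listed at 0 counts. Snord88a also lies wholly inside an annotated exon of another gene on the same strand, and Snord88c touches none. How the authors' counting treated reads that match both copies is not given in the sources used here.

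Total gene counts were 22855451 and 23030224 in the libraries labelled knockout and 22611434 and 25344190 in the controls. Levels are given as normalised CPM, counts scaled to library size (CPM) after TMM scaling between libraries. Gm26917 and Gm42418, both ribosomal-RNA-like, took 6.30% and 4.64% of the counts in the libraries labelled knockout, against 9.72% and 10.3% in the controls. With both genes removed, the same 6 members were called. Ssrp1 itself was at 305.1 and 326.9 normalised CPM in the libraries labelled knockout, against 281.9 and 305.4 in controls (log2 fold change 0.11 ± 0.065 SE, edgeR adjusted p 0.226), so transcript levels do not check the labels. It passed the threshold with scaling by library size alone (0.031) and without knockout replicate 1 (0.011). A total of 8 embryonic stem cell markers, Pou5f1, Sox2 and Nanog among them, summed to 2962 and 2963 normalised CPM in the libraries labelled knockout and 3419 and 3513 in controls, with 5 called lower (Pou5f1, Sox2, Esrrb, Klf4 and Tdgf1), 2 higher (Nanog and Utf1) and 0 at zero counts. Primitive endoderm markers, 4 of 5 tested called higher, summed to 21.4 and 23.4 in the libraries labelled knockout against 8.83 and 6.94 in controls. Markers of neural cells (2 of 4 tested lower) summed to 50.5 and 50.8 against 65.8 and 66.8, and those of trophoblast (0 of 1 tested called) to 9.36 and 9.78 against 6.52 and 6.32. Fibroblast markers (0 of 2 tested called, 2 of 6 at 0 throughout) summed to 15.9 and 19.5 against 19.0 and 17.9. Whether these markers come from other cells or from the stem cells themselves cannot be told apart in these libraries. The part of such cells, if present, and of the ribosomal-RNA-like share, in the results on snoRNAs was not tested. Separate cultures are not stated for the libraries of a group, so the p-values reflect only how far these samples spread, possibly for technical reasons.

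Symbols at 0 counts differed from the members in where they lie. Of the 147 symbols, 75 had 0 counts in all 4 libraries and 12 had 1 to 9. On the same strand, 54 of the 75 symbols at 0 lay wholly inside an annotated exon of another gene, a share of 72.0%. None of the 60 members (0 of 60) and none of the 12 symbols with 1 to 9 counts (0 of 12) did, so every symbol placed in this way was listed at 0. The other gene was in all 54 cases a longer gene and not a second small RNA. Most of the remaining symbols at 0 were Snord116l symbols, each of 94 bases and inside Snhg14. They share this host and touched no exon of another gene on the same strand. Of the members, 8 touched an exon of another gene on the same strand with part of their length, and for 4 of them that gene was no small RNA. In contrast, 3 members lay wholly inside an exon of a gene on the opposite strand and were counted: Snora73b (1330 counts over the 4 libraries), Snord4a (225) and Snora73a (160). A symbol listed at 0 does not show that the RNA was missing from the cells, and how the authors' counting assigned reads to overlapping genes is not given in the sources used here.

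**Figure D1:**
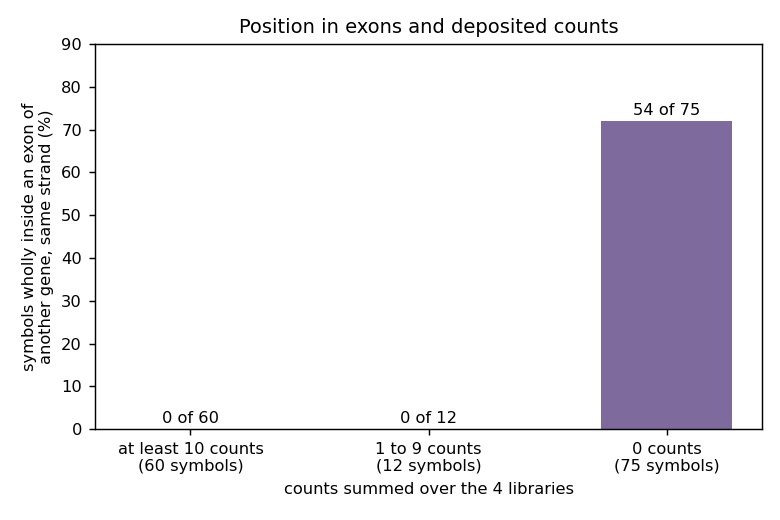
Share of snoRNA and scaRNA symbols (%) lying wholly inside an annotated exon of another gene on the same strand, by the counts deposited over the 4 libraries. The share was 0 of 60 for the members, 0 of 12 for symbols with 1 to 9 counts and 54 of 75 for symbols at 0.

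Few snoRNA genes differed between the groups, and most of those that did were higher in the libraries labelled knockout. Snora17, Snora43, Snora73b, Snord93 and Snord118 rose and Snora47 fell. These are 5 higher and 1 lower of 46 members that had enough counts for the test, 13.0% called, by edgeR's quasi-likelihood test at an adjusted p under 0.05 over all genes. Over all 17482 genes tested 33.6% were called, 16.5% higher and 17.2% lower. Among genes with a mean under 5 normalised CPM, where 40 of the 46 members lie, the share called was 21.2%, and 2 of those 40 members were called (Snora47 and Snord118). Of the 6 members at 5 or more, 4 were called, a level at which the share over all genes tested lies above 33.6%. The median standard error of the log2 fold change was 0.41 for the members and 0.14 over all genes tested. The median log2 fold change was 0.16 over the 46 members and 0.0035 over all genes tested. The groups did not overlap in 15 of 46 members, 11 of them higher and 4 lower, where 66.6% of all genes tested did not overlap.

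**Figure D2:**
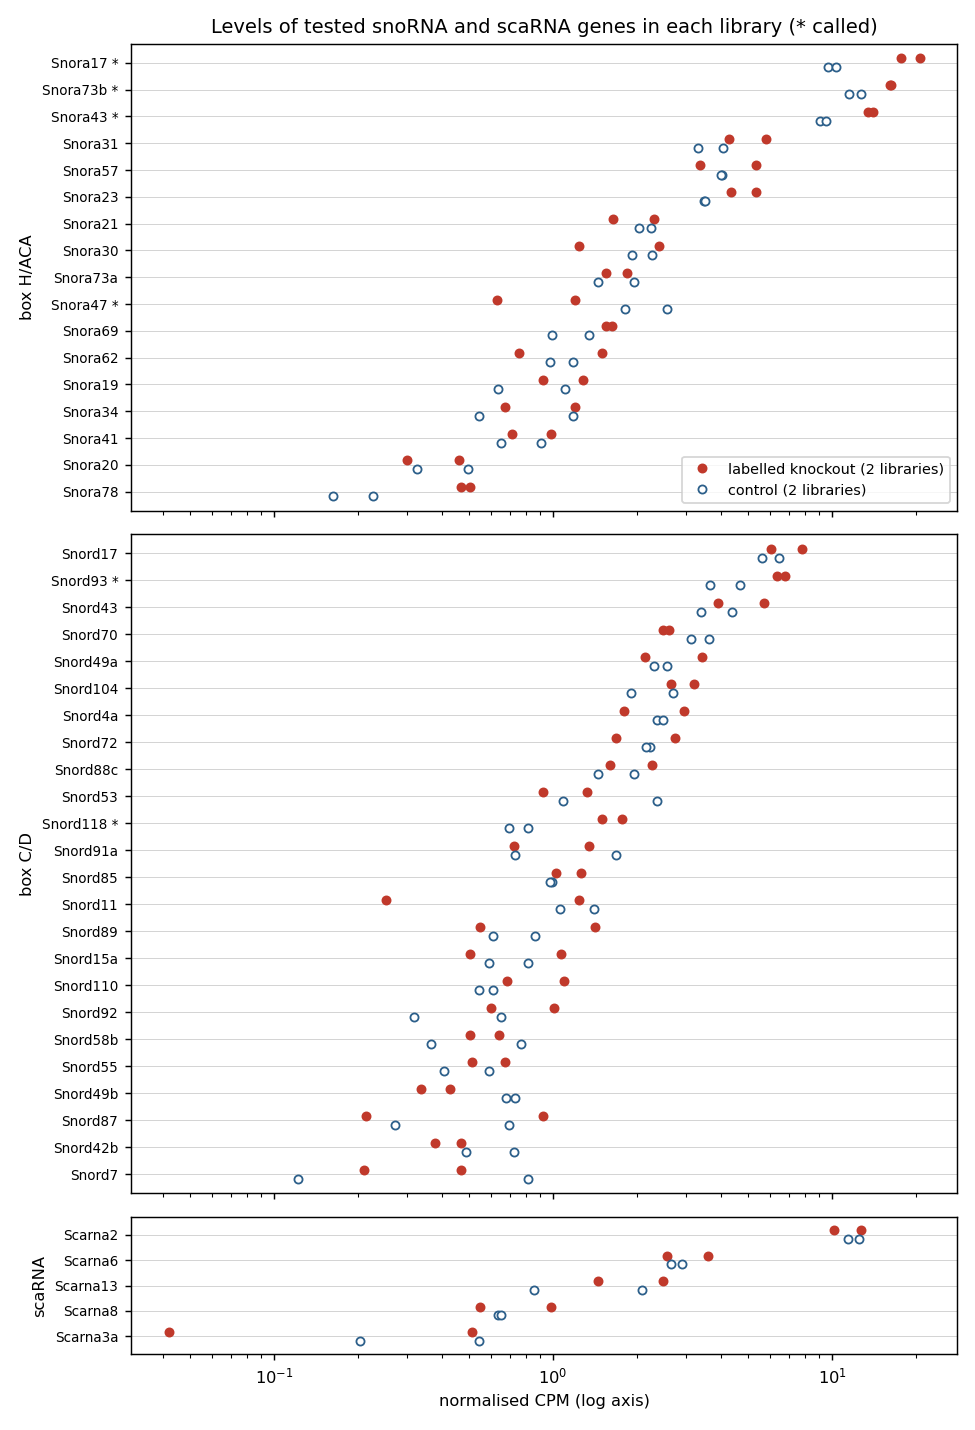
Normalised CPM (log axis) of each of the 46 tested members in the 2 libraries labelled knockout (filled) and the 2 controls (open), by class, with an asterisk on the 6 called members. Snora17 lies at 17.7 and 20.6 in the libraries labelled knockout and at 9.65 and 10.4 in controls, and most members under 2 normalised CPM have groups that overlap.

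Snora17 was the most changed of the abundant members. It was at 20.6 and 17.7 normalised CPM in the libraries labelled knockout (483 and 422 counts), against 9.65 and 10.4 in controls (213 and 254 counts). Both libraries labelled knockout lay well above both controls. This is a log2 fold change of 0.94 ± 0.13 (standard error, n = 2 each), a 1.91-fold rise, with an edgeR adjusted p of 1.6e-05. Snora43, its neighbour, was at 14.0 and 13.5 normalised CPM in the libraries labelled knockout, against 9.06 and 9.51 in controls. The groups did not overlap, and the log2 fold change was 0.57 ± 0.14 with an edgeR adjusted p of 0.0031. Snora43 and Snora17 lie 1204 bases apart on the same strand, inside Snhg7 in the RefSeq table of the same build (chr2:26637176-26640244), a noncoding host gene that has no row in the count table. Their sequences shared 76.6% of 77 aligned bases. Both calls were kept in each of the 11 alternative settings tried.

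Snora73b, one of the U17 genes, was at 16.2 and 16.2 normalised CPM in the libraries labelled knockout, against 12.7 and 11.5 in controls. Its log2 fold change was 0.42 ± 0.13 with an edgeR adjusted p of 0.015. Without control replicate 2 the adjusted p was 0.154, within a range of 0.0046 to 0.154 over 11 alternatives. The copy Snora73a was at 1.84 and 1.55 normalised CPM in the libraries labelled knockout, against 1.45 and 1.96 in controls, with overlapping groups and a log2 fold change of -0.012 ± 0.35. Of the length of Snora73a, 77.6% lies in an exon of another gene on the same strand, and none of the length of Snora73b does. Both lie inside Snhg3 and the longer Rcc1, a gene for a chromatin-bound exchange factor of Ran, on the same strand.

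Snora47 was the member that fell. It was at 1.20 and 0.63 normalised CPM in the libraries labelled knockout (28 and 15 counts), against 1.81 and 2.57 in controls (40 and 63 counts). The groups did not overlap, and the log2 fold change was -1.26 ± 0.40 with an edgeR adjusted p of 0.018. The call was lost with DESeq2 (adjusted p 0.061), without knockout replicate 2 (0.128) and without control replicate 2 (0.172), in a range from 0.0024 to 0.172. Its host Zbed3, a zinc finger gene, was at 9.25 ± 0.872 normalised CPM in the libraries labelled knockout and 8.91 ± 0.203 in controls (SD, n = 2 each), with a log2 fold change of 0.054 ± 0.15.

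The other 13 tested box H/ACA members did not pass the threshold, with log2 fold changes from -0.20 to 1.31. Snora31, the most abundant of them, was at 5.81 and 4.28 normalised CPM in the libraries labelled knockout, against 3.31 and 4.08 in controls (log2 fold change 0.45 ± 0.23, edgeR adjusted p 0.138). Its adjusted p was 0.035 without knockout replicate 2, the lowest of 11 alternatives, of which the highest was 0.593. Both groups of Snora31 stood apart by a narrow gap. Named to account for the remaining members, after their values were seen, Snora23 was at 4.36 and 5.33 normalised CPM in the libraries labelled knockout, against 3.49 and 3.51 in controls, with an edgeR adjusted p of 0.108. Snora78 had the highest log2 fold change of all tested members, 1.31 ± 0.67, on 11 and 12 counts in the libraries labelled knockout and 5 and 4 in controls (edgeR adjusted p 0.145). Snora57, Snora21, Snora30, Snora69, Snora62, Snora19, Snora34, Snora41 and Snora20 lay between 0.30 and 5.34 normalised CPM in single libraries. Their log2 fold changes ran from -0.20 for Snora30 to 0.43 for Snora69.

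Of 24 tested box C/D members, 2 rose and 0 fell, and 2 had an unadjusted p under 0.05. DESeq2 called 0 of them in either direction. Over all genes tested edgeR called 33.6%, and 21.2% of those with a mean under 5 normalised CPM, where 22 of the 24 lie. Snord93 was at 6.80 and 6.34 normalised CPM in the libraries labelled knockout (159 and 151 counts), against 3.67 and 4.69 in controls (81 and 115 counts). The groups did not overlap, and the log2 fold change was 0.65 ± 0.20 with an edgeR adjusted p of 0.016. The call was lost with DESeq2 (adjusted p 0.061) and without control replicate 1 (0.153), in a range from 0.0056 to 0.153. The noncoding host 2700038G22Rik was at 7.22 and 5.71 normalised CPM in the libraries labelled knockout, against 5.16 and 5.14 in controls (log2 fold change 0.33 ± 0.19, edgeR adjusted p 0.202).

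Snord118, the U8 RNA that acts in maturation of the large ribosomal subunit RNAs, was at 1.50 and 1.76 normalised CPM in the libraries labelled knockout (35 and 42 counts), against 0.82 and 0.69 in controls (18 and 17 counts). The libraries labelled knockout were both above the controls. Its log2 fold change was 1.11 ± 0.41 with an edgeR adjusted p of 0.045. This call was the least firm of the 6: it was lost with DESeq2 (adjusted p 0.138) and in each of the 4 fits that left out a library, with adjusted p from 0.072 to 0.203. Snord13, the U13 RNA, was too low for the test, with 7 and 4 counts in the libraries labelled knockout and 0 and 0 in controls. It met the rule of 10 counts through the libraries labelled knockout alone, so no fold is given, and it was named after its values were seen.

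The more abundant box C/D members did not pass the threshold. Snord17, at 238 bases the longest of the class, was at 7.78 and 6.05 normalised CPM in the libraries labelled knockout, against 6.43 and 5.63 in controls (log2 fold change 0.20 ± 0.19, edgeR adjusted p 0.449). Snord43 was at 5.73 and 3.90 against 3.40 and 4.37 in controls, and its log2 fold change was 0.31 ± 0.23. The groups of both overlapped. The annotated entry of Snord43, of 108 bases, is typed as a microRNA gene and holds neither TGATGA nor CTGA in the windows searched, so its class rests on the symbol. Snord70 was at 2.48 and 2.60 normalised CPM in the libraries labelled knockout, against 3.13 and 3.63 in controls, without overlap (log2 fold change -0.41 ± 0.26, edgeR adjusted p 0.240). The other 19 tested box C/D members lay under 3.5 normalised CPM in every library, with log2 fold changes from -0.88 for Snord49b to 0.71 for Snord92, both named after their values were seen. Snord11, at 1.24 and 0.25 normalised CPM in the libraries labelled knockout and 1.40 and 1.06 in controls, was called lower only in the fit without knockout replicate 1.

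No scaRNA passed the threshold: 0 of 5 tested were called and 0 had an unadjusted p under 0.05 by edgeR, and DESeq2 called 0. Over all genes tested edgeR called 33.6%, and 21.2% of those with a mean under 5 normalised CPM, where 4 of the 5 lie. Scarna2, the most counted, which guides methylation of the U2 spliceosomal RNA in human cells, was at 12.7 and 10.2 normalised CPM in the libraries labelled knockout, against 12.5 and 11.4 in controls. Its log2 fold change was -0.058 ± 0.15, and the controls lay within the spread of the libraries labelled knockout. Scarna6 was at 3.59 and 2.56 against 2.90 and 2.65 in controls, Scarna13 at 1.45 and 2.48 against 2.08 and 0.86, and Scarna8 at 0.98 and 0.55 against 0.63 and 0.65. Scarna3a had 12 and 1 counts in the libraries labelled knockout and 12 and 5 in controls. The groups overlapped in all 5.

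**Figure D3:**
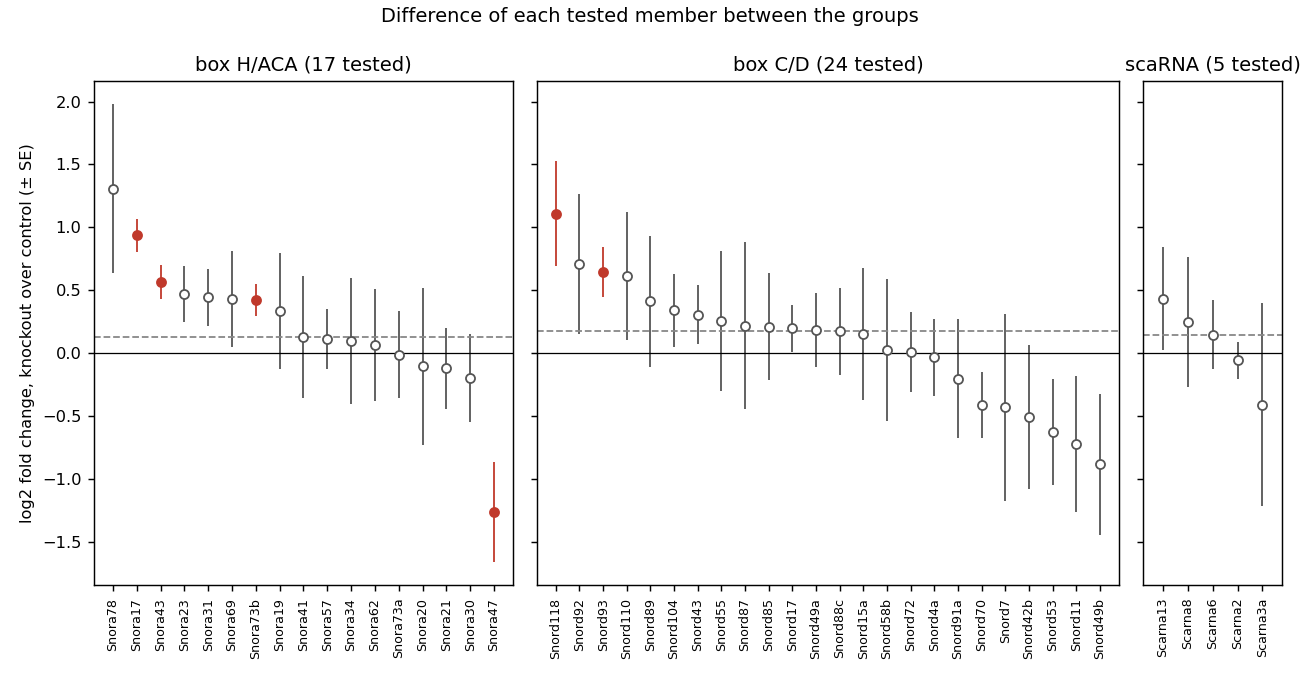
Log2 fold change, knockout over control, with its standard error for each of the 46 tested members, ordered within each class. Filled points passed an edgeR adjusted p under 0.05, and dashed lines are class medians, at 0.13 for box H/ACA, 0.18 for box C/D and 0.15 for scaRNA genes.

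Of the 60 members, 14 were not tested because too few libraries reached the count minimum: 12 box C/D genes, Snora2b and Scarna9. Together they had 79 and 77 counts in the libraries labelled knockout and 44 and 83 in controls, and the groups overlapped.

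The box H/ACA class was higher as a sum, and 3 genes carried most of that sum. Summed over its 18 members it was at 80.5 and 72.2 normalised CPM in the libraries labelled knockout, against 55.1 and 57.6 in controls, which is 76.4 ± 5.81 and 56.3 ± 1.76 (SD, n = 2 each), a ratio of 1.36. Snora17, Snora43 and Snora73b made up 63.2% and 65.7% of this sum in the libraries labelled knockout, against 57.1% and 54.6% in controls. The 15 other members summed to 29.6 and 24.8 normalised CPM in the libraries labelled knockout, against 23.6 and 26.2 in controls, and there the groups overlapped. Box C/D members summed to 50.9 and 45.2 normalised CPM in the libraries labelled knockout, against 40.6 and 44.5 in controls, a ratio of 1.13 whose groups stood apart by less than 1 normalised CPM. The scaRNA sum was 19.5 and 15.9 against 18.7 and 16.0 in controls, with overlap.

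The ratio of the box H/ACA to the box C/D sum was 1.58 and 1.60 in the libraries labelled knockout and 1.36 and 1.29 in controls. Gene by gene the classes stood close: the median log2 fold change was 0.13 over 17 tested box H/ACA members and 0.18 over 24 tested box C/D members, a difference of -0.053. In the box H/ACA class 12 log2 fold changes were above 0 and 5 below, and in the box C/D class 16 and 8. The calls were 3 higher and 1 lower of 17 against 2 higher and 0 lower of 24. Over all genes tested 16.5% were called higher and 17.2% lower. At a mean of 5 or more normalised CPM, 3 of 3 box H/ACA and 1 of 2 box C/D members were called. Under 5 it was 1 of 14 and 1 of 22. The difference between the classes was not tested. Both medians depended on single libraries: without knockout replicate 2 the box H/ACA median was 0.42, and without knockout replicate 1 the box C/D median was -0.047. In a library, fewer cells with an RNA and less RNA per cell cannot be told apart.

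**Figure D4:**
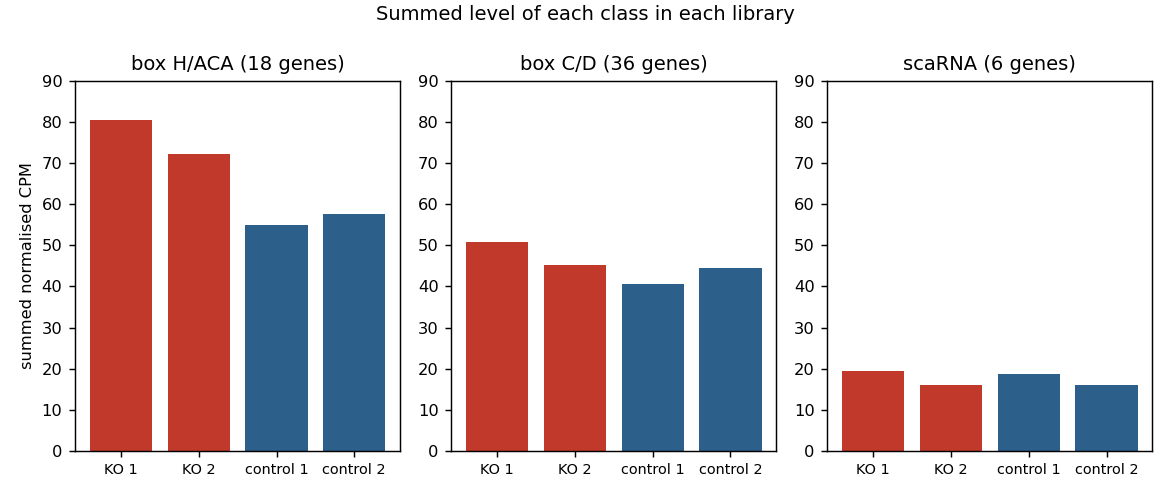
Normalised CPM summed over all members of each class in each library, with the libraries labelled knockout (KO 1 and KO 2) left of the controls. The box H/ACA sums are 80.5 and 72.2 in the libraries labelled knockout and 55.1 and 57.6 in controls, and the scaRNA sums overlap.

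Of the 6 called members, 4 stood high per length, and members with more counts were also called more often. On the scale of normalised CPM per kilobase, Snora17 averaged 145.3 in the libraries labelled knockout and 75.8 in controls, Snora43 98.9 and 66.8, Snord93 92.5 and 58.9 and Snora73b 79.1 and 59.2. The other called members were lower, Snora47 at 6.62 in the libraries labelled knockout and 15.9 in controls and Snord118 at 12.1 and 5.59. Scarna2, with 414 bases the longest member, was at 27.7 in the libraries labelled knockout and 28.8 in controls. The median over all members of a class was 10.2 and 12.3 for box H/ACA, 8.08 and 6.50 for box C/D and 6.49 and 5.13 for scaRNA genes, with the libraries labelled knockout given before controls in each pair. Members were short, with a median of 137 bases for box H/ACA and 84.5 for box C/D genes.

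Log2 fold changes of the snoRNAs and of their host genes were only weakly correlated. The median standard error of the tested members, 0.41, was larger than most host changes, so a close relation could be missed. A host on the same strand was found for 53 of 60 members, 44 genes in all, of which 41 were tested, 12 called higher and 9 lower, beside 16.5% higher and 17.2% lower over all genes tested. Without control replicate 1 or 2 the number called higher was 4. In 38 tested members with a tested host, the signs of the log2 fold changes were the same in 18. Across these 38 members Pearson's r between member and host was 0.17 and Spearman's rho 0.22, given as a description, since members share hosts and libraries and their counts are low. Among 11 members whose host was called higher, 9 had a log2 fold change above 0, and only Snora73b was called higher. Snhg3, which also holds Snora73b, had a log2 fold change of 0.44 ± 0.095 (edgeR adjusted p 0.0011), beside 0.28 ± 0.066 for Rcc1 and 0.42 ± 0.13 for Snora73b. The call on Rcc1 was lost without control replicate 1 (adjusted p 0.087). Among 10 members whose host was called lower, 7 had a log2 fold change above 0. Of these 10, 0 were called in either direction, 0 had an unadjusted p under 0.05 by edgeR, and DESeq2 called 0.

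**Figure D5:**
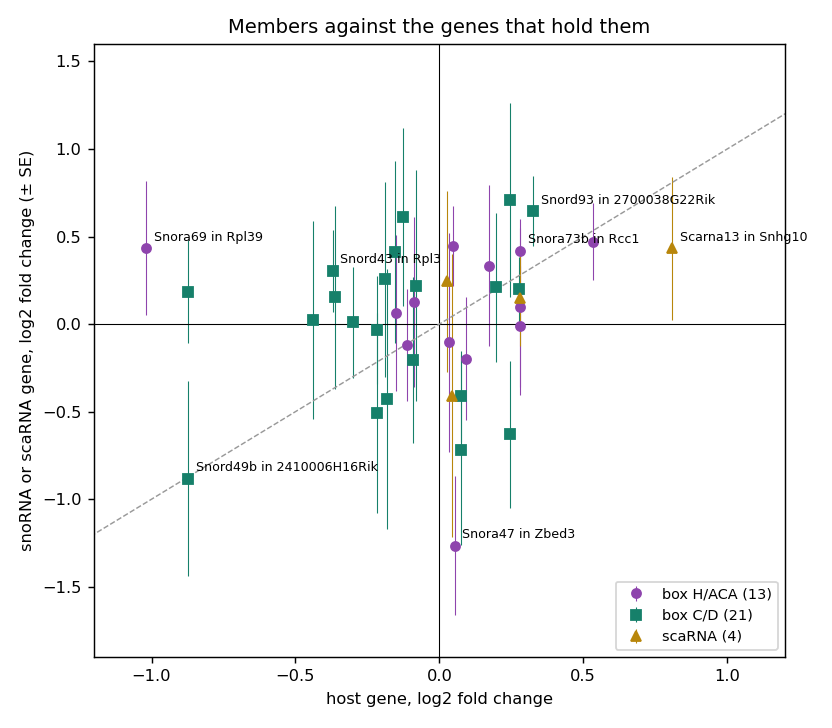
Log2 fold change of 38 tested members (vertical, with standard error) against that of the gene that holds them (horizontal), by class, with a dashed line where both are equal. Snora69 stood at 0.43 while its host Rpl39 was at -1.02, and Snora47 stood at -1.26 while Zbed3 was at 0.054.

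Ribosomal protein genes held 10 of these members. Of the 9 such hosts 7 were called lower, beside 17.2% of all genes tested, and their log2 fold changes ran from -1.02 for Rpl39 to -0.11 for Rpl23, which with Rpsa did not pass. The 10 members inside them had a median log2 fold change of 0.043, and 8 of them stood above their host. Snora69 was at 1.62 and 1.55 normalised CPM in the libraries labelled knockout, against 1.00 and 1.35 in controls, while Rpl39, a large subunit protein gene, was at 35.7 and 32.3 against 85.8 and 52.3 in controls. Snord43 and Snord83b lie in Rpl3, which was at 1106 and 1012 normalised CPM in the libraries labelled knockout and 1375 and 1359 in controls (log2 fold change -0.37 ± 0.059, edgeR adjusted p 6.7e-05). The difference between a member and its host was not tested, and whether a read at a snoRNA gene came from the mature RNA or from unspliced host RNA cannot be told apart in counts per gene.

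Some hosts held more than 1 tested member, and the differences between members of a host were not tested. In Nop58, a core box C/D protein gene whose log2 fold change was 0.076 ± 0.063, Snord70 was at -0.41 ± 0.26 and Snord11 at -0.72 ± 0.54. In Wdr43, a ribosome assembly gene that rose (0.25 ± 0.063, edgeR adjusted p 0.0047), Snord53 was at -0.63 ± 0.42 and Snord92 at 0.71 ± 0.55. In the noncoding host 2410006H16Rik, which fell by 0.87 on the log2 scale (SE 0.10, edgeR adjusted p 2.1e-06), Snord49b was at -0.88 ± 0.56 and Snord49a at 0.18 ± 0.29. None of these 6 members passed the threshold, and the pairs were named after their values were seen. For the scaRNAs, Snhg10, the noncoding host of Scarna13, rose on few counts (3.01 ± 0.098 against 1.71 ± 0.177 normalised CPM in controls, edgeR adjusted p 0.039), and that call was lost with DESeq2 and without any 1 of the 4 libraries (adjusted p 0.070 to 0.165). Atg16l1, an autophagy gene that holds Scarna6, and Snx5, a sorting nexin gene that holds Snord17, rose by 0.28 ± 0.078 and 0.28 ± 0.066 on the log2 scale, calls lost without control replicate 2 (adjusted p 0.076 and 0.102) and, for Atg16l1, also without control replicate 1 (0.099).

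Genes for the proteins that bind, assemble and trim these RNAs moved in both directions. Of 34 such genes tested, 13 rose and 3 fell, where 16.5% of all genes tested rose and 17.2% fell, and the median log2 fold change was 0.11. All 34 lay above 5 normalised CPM in every library, unlike most members, and the shares of genes called were not compared by a test. The number that rose was 7 without control replicate 1, and the number that fell was 1 with DESeq2 or with scaling by library size alone, 1 without knockout replicate 2 or control replicate 1, and 0 without control replicate 2. Among the core box C/D proteins, the methyltransferase gene Fbl rose to 206.8 ± 25.8 normalised CPM in the libraries labelled knockout, against 153.2 ± 2.04 in controls (log2 fold change 0.43 ± 0.075, edgeR adjusted p 1.5e-04). Snu13, which binds the C and D boxes, rose to 112.8 ± 1.03 against 88.1 ± 1.48 in controls. Nop56 and Nop58, the scaffold proteins, did not pass the threshold (log2 fold changes -0.13 ± 0.062 and 0.076 ± 0.063).

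Among the core box H/ACA proteins, the pseudouridine synthase gene Dkc1 fell to 245.3 ± 0.442 normalised CPM in the libraries labelled knockout, against 293.4 ± 15.5 in controls (log2 fold change -0.26 ± 0.063, edgeR adjusted p 0.0034). That call was lost without control replicate 2 (adjusted p 0.145). Nhp2 rose to 105.5 ± 8.73 against 84.0 ± 2.29 in controls (edgeR adjusted p 0.0015), and Nop10 had a log2 fold change of 0.20 ± 0.098 that did not pass (adjusted p 0.134), though it passed with scaling by library size alone (0.032) and without knockout replicate 2 (0.0097). Of the other factors, the nucleolar and coiled body chaperone gene Nolc1 rose to 216.4 ± 23.3 against 154.2 ± 4.57 in controls and Wrap53, which brings RNAs to Cajal bodies, to 26.1 ± 1.59 against 17.7 ± 1.85. The helicase gene Aqr, which links splicing to snoRNP assembly, rose to 289.4 ± 0.845 against 236.8 ± 11.2, a call lost without control replicate 1 (adjusted p 0.097). The 3′ end adenylating enzyme gene Tent4b rose to 185.0 ± 5.48 against 147.7 ± 1.50. Besides Dkc1, the genes that fell were Coil, for the Cajal body protein coilin (30.5 ± 1.37 against 37.1 ± 0.163 normalised CPM in controls, edgeR adjusted p 0.022), and Shq1, for a box H/ACA assembly factor (22.8 ± 1.52 against 28.0 ± 0.329, edgeR adjusted p 0.032), both named after their values were seen.

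Short RNA genes outside the members were set beside them. Of 11 tested short structured RNA genes with other names, 1 was called, Rn7sk. Among them are 3 genes of U3, a box C/D snoRNA outside the name rule that acts in small subunit RNA processing, with log2 fold changes of 0.00091 ± 0.23 (Rnu3a), 0.11 ± 0.29 (Rnu3b1) and -0.48 ± 0.58 (Rnu3b3). These 3 were named after their values were seen, and none passed the threshold. Without the filter on low counts, with the replicate block, without knockout replicate 1 or without control replicate 2, Rmrp was called lower as well. Rn7sk, the RNA that holds P-TEFb inactive, fell to 2198 and 2559 normalised CPM in the libraries labelled knockout, against 2905 and 2799 in controls (log2 fold change -0.26 ± 0.064, edgeR adjusted p 0.0033). Rmrp, the RNA of RNase MRP, was at 613.2 and 422.9 against 637.2 and 604.8 in controls, and the telomerase RNA gene Terc, itself a box H/ACA RNA, at 30.0 and 23.7 against 25.4 and 27.3. Among 94 tested microRNA genes, 34 rose and 11 fell, beside 16.5% and 17.2% of all genes tested. Most of those that rose carry the names Mir297, Mir466, Mir467 or Mir669, families named after their values were seen. Genes of a family were counted singly, so the number that rose is not one of unrelated genes. Mir291b, Mir293 and Mir290a, the most counted of the tested microRNA genes, had log2 fold changes of 0.32 ± 0.089, 0.024 ± 0.19 and -0.0079 ± 0.14. Mir291b passed the threshold (edgeR adjusted p 0.0086), a call lost without knockout replicate 2 (0.142) and without control replicate 1 (0.082).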

How the data were processed

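RNA was measured in 4 libraries of E14 cells. The authors deposited raw counts as whole numbers, 1 row per gene symbol. The submitters' processing notes name cutadapt, HISAT2, featureCounts and the build mm10. For tool versions, annotation, strand setting and multiply matching reads, nothing was given in these sources. The columns carry OK where the sample titles carry KO. Columns not mapped to a sample numbered 0.

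Positions, hosts and sequences came from GENCODE M21 on the same build, in which all 60 members have a position. Snora43 has 2 overlapping entries, of which the longer was used. The host is the longest gene on the same strand that contains the member. In R 4.3.3 with edgeR 4.0.16, filterByExpr (at least 10 counts in 2 libraries after scaling, at least 15 in total) left 17482 genes. After TMM scaling the groups were compared in a quasi-likelihood F test without covariates, which has 2 residual degrees of freedom. The test also draws the dispersion of each gene towards that of other genes, so its p-values rest on more than these 2. The prior count was 0.125. P-values were adjusted by Benjamini-Hochberg over these genes and called under 0.05. Standard errors are the size of the log2 fold change over the square root of F. The common coefficient of biological variation was 0.067. Between replicates, chi-square per degree of freedom over genes with at least 20 counts was 11.5 for the libraries labelled knockout and 3.37 for controls, so neither pair was 1 library repeated. DESeq2 1.42.0 was an alternative.

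Members and lists were chosen with earlier results of these data known. Named genes are, per box class, the called members, up to 8 by adjusted p, and the 4 most abundant, then the tested scaRNAs, the hosts of these, 3 core proteins per class and 4 further factors with the smallest adjusted p, the 6 most abundant other short RNA genes and Ssrp1.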

Additional observations from a re-analysis of the deposited data

How the results depend on the processing

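The same 6 members were called with RLE size factors, with library size alone, without Gm26917 and Gm42418, with no filter, with at least 1 CPM in 2 libraries and with the replicate block. DESeq2 kept 3 of the 6 calls, and the 4 fits without a library kept between 3 and 5. Replicate numbers share no stated culture or day, and the deviations of same-numbered libraries had a correlation of 0.0078, so no pairing was assumed. With the block, 5 members were higher and 1 lower, and over all genes 3072 were higher and 3216 lower. DESeq2 left 0 box H/ACA members lower, 0 box C/D members higher and 1 snoRNP gene lower. Leaving out a library gave 0 to 1 box H/ACA members lower, 0 to 1 box C/D members higher, 0 to 1 lower, 7 to 15 snoRNP genes higher and 0 to 4 lower, 4 to 11 hosts higher, 7 to 14 other short RNA genes lower and 1915 to 2995 genes higher in all. In these fits the box H/ACA median log2 fold change was 0.17 to 0.42 and the box C/D median -0.047 to 0.19. With scaling by library size alone the median of all genes was at 0.086, 1 snoRNP gene was lower and the box H/ACA median was 0.21, and at 1 CPM in 2 libraries that median was 0.23. The log2 ratio of the box H/ACA sums was 0.44, and 0.13 without the most counted members, a setting chosen after seeing the data along with leaving a library out of the sums. Log2 fold changes of 11 genes changed sign. Over the 4 fits without a library, they ran from -0.23 to 0.095 for Scarna2, -0.11 to 0.37 for Scarna6, -0.086 to 1.19 for Scarna13, -0.24 to 0.60 for Scarna8, -2.99 to 0.47 for Scarna3a, -0.048 to 0.15 for Zbed3, -0.056 to 0.14 for Tpt1, -0.030 to 0.081 for Haus6, -0.15 to 0.19 for Terc, -0.55 to 0.44 for Mir293 and -0.27 to 0.21 for Mir290a. Tpt1 (edgeR adjusted p 0.0036) and Mir293 (0.0024) passed the threshold as higher without knockout replicate 2, and Mir293 (5.9e-04) as lower without knockout replicate 1. Scaling by library size alone gave 0.024 for Scarna2 and 0.074 for Mir290a, the block gave -0.037 for Mir293, and the minimum of 1 CPM gave 0.00011 for Mir290a. The cause of these changes was not tested. Counts of 11 to 1372 per member over the 4 libraries limit what can be called.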
